A study of Mus with 4 samples.

Results

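Transcripts of hepatocytes, the parenchymal cells of the liver, were examined in RNA-seq libraries of liver sinusoidal endothelial cells (LSECs), which form the porous wall of the liver sinusoids. The 35 genes were fixed as a list of Ensembl identifiers, described as abundant hepatocyte genes that include Alb, Apoa1, Ttr, Trf, Cyp2e1 and Cps1 and leave out clotting and acute phase genes. All 35 were among the 54532 identifiers of the deposited count table, and all 35 passed the filter on low counts. The table carries no gene symbols and the reference gene table paired 0 of its identifiers with one, so each gene is given by its identifier. Which identifier belongs to which of the named genes is therefore not stated, and that the list holds hepatocyte genes rests on its definition.

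The mice of both groups had received the hepatotoxin CCl4 (carbon tetrachloride), and the series asks how endothelial POFUT1, the enzyme that puts O-linked fucose on EGF-like repeats such as those of Notch receptors, acts on LSECs and hepatic stellate cells. There were 2 libraries from control mice (CTL, called CTL1 and CTL2) and 2 from Pofut1 knockout mice (P1KO, called KO1 and KO3); the series title places the gene in the endothelium. The labels give neither the Cre line, strain, age, dose nor time, and they name no animals, so p-values reflect library spread only, and part of it may be technical. The cell type label gives LSECs, whereas the extraction text names heart ventricles as the RNA source. With no symbols, the markers of endothelial, cardiac and other cells and Pofut1 itself were not analysed here. Library totals ranged from 17464769 to 17918834 counts.

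As background, hepatocytes make most of the proteins of blood plasma. Albumin carries fatty acids and bilirubin, apolipoprotein A-I is the main protein of high-density lipoprotein, transthyretin carries thyroxine and the retinol-binding protein, and transferrin carries iron. CYP2E1 is the cytochrome P450 that turns CCl4 into its reactive radical, and it sits mainly in hepatocytes around the central vein. CPS1 starts the urea cycle and is found mainly in hepatocytes nearer the portal tract. Because these transcripts are so plentiful in hepatocytes, they are commonly used to estimate hepatocyte RNA in preparations of other liver cells.

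The listed hepatocyte genes made up a small share of every library, and that share was lower in both P1KO libraries than in both CTL libraries. The 35 genes took 0.267% of all counts in CTL1 (46635 reads) and 0.262% in CTL2 (46683 reads). They took 0.207% in KO1 (37115 reads) and 0.248% in KO3 (43913 reads). The exact Clopper-Pearson 95% intervals, which cover counting error only, were 0.265 to 0.270% and 0.260 to 0.265% for the CTL libraries, 0.205 to 0.209% for KO1 and 0.245 to 0.250% for KO3. The group means were 0.265 ± 0.00338% in CTL and 0.227 ± 0.0287% in P1KO (SD, n = 2 each), a P1KO to CTL ratio of 0.860. The 2-sided exact permutation test gave p = 0.33, the smallest p that 2 libraries against 2 can give. KO1 held 0.783 times the CTL mean share and KO3 0.936 times, so the P1KO libraries differed more from each other than KO3 did from CTL. In bulk RNA, fewer hepatocytes and less of these transcripts per hepatocyte cannot be told apart.

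**Figure D1:**
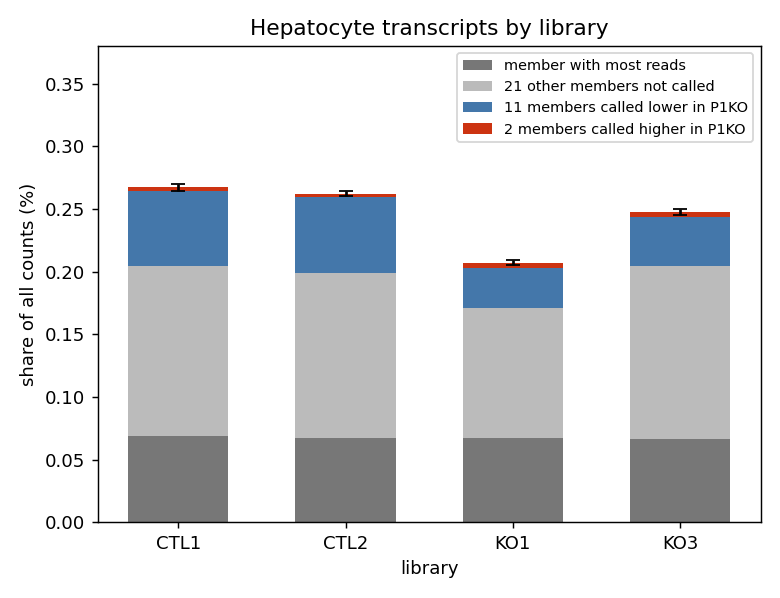
Share of all counts (%, vertical axis) taken by the 35 hepatocyte genes in each library (horizontal axis), stacked by the edgeR call of the gene, with exact 95% intervals of the total as error bars. The bar of KO1 ends at 0.207% and that of KO3 at 0.248%, below both CTL bars, while the lowest segment, the gene with most reads, is about as tall in all 4.

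The lower share did not come from an even shift of all 35 genes. In edgeR's quasi-likelihood test over 15510 genes, 11 of the 35 were lower in P1KO, 2 were higher and 22 did not pass (Benjamini-Hochberg adjusted p below 0.05). The 13 calls are 37.1% of the hepatocyte genes, against 19.5% of all tested genes. The lower calls are 31.4% of them against 9.84% of all tested genes, and the higher calls 5.71% against 9.68%. The list was chosen with earlier results of these data known, so these shares describe it and are no separate test. Genes with more reads are called more often, so the same shares were also taken over the 9983 tested genes whose mean lay within the range of the hepatocyte genes, 7.45 to 674 CPM (reads scaled to library size, not corrected for gene length). There, 24.6% were called, 11.4% lower and 13.2% higher. The highest mean stood far above the second highest, 134 CPM, so this range was wide and the match in level loose. The median log2 fold change was -0.19 over the hepatocyte genes and -0.01 over all tested genes. Below 0 lay 27 of the 35 estimates, against 7931 of the 15510 over all tested genes.

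The counts changed strongly with the libraries that entered the fit. Without CTL1, 1 of the 35 genes was called lower and 0 higher, and without CTL2, 2 were lower and 0 higher, while 0.832% and 0.774% of all tested genes were called. Without KO1, 16 were lower and 9 higher, and without KO3, 24 were lower and 2 higher, with 34.8% and 33.6% of all tested genes called.

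The gene with the most reads, ENSMUSG00000029368, did not pass the test and was almost level across the libraries. It had 12060 and 11899 reads in the CTL libraries (687 and 666 CPM), against 11976 reads in KO1 and 11783 reads in KO3 (681 and 662 CPM). The groups overlapped, and the log2 fold change was -0.01 ± 0.05 (SE; edgeR adjusted p = 0.898). This gene alone made up 25.9% and 25.5% of the hepatocyte reads of the CTL libraries, 32.3% of those in KO1 and 26.8% of those in KO3. Without it, the share of the other 34 genes was 0.198% and 0.195% in the CTL libraries, 0.140% in KO1 and 0.181% in KO3.

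The deepest falls were about 2- to 3-fold and were found in both P1KO libraries. ENSMUSG00000027559 had 34.7 CPM in CTL1 and 39.5 CPM in CTL2, against 12.1 CPM in KO1 and 13.0 CPM in KO3. Its mean went from 37.1 ± 3.35 to 12.6 ± 0.658 CPM (SD, n = 2 each), giving a log2 fold change of -1.56 ± 0.11 (SE; edgeR adjusted p = 0.000213.) It was the one hepatocyte gene that also passed whichever of the 4 libraries was left out, with edgeR adjusted p of 0.0331 without CTL1 and 0.0418 without CTL2. ENSMUSG00000054422 had 45.5 and 42.8 CPM in CTL and 17.4 and 20.3 CPM in P1KO, giving a log2 fold change of -1.23 ± 0.10 (SE; edgeR adjusted p = 0.000383.) Its adjusted p in edgeR was 0.0541 without CTL1 and 0.0477 without CTL2. ENSMUSG00000003053 had 23.6 and 23.7 CPM in CTL and 10.8 and 9.94 CPM in P1KO, giving a log2 fold change of -1.19 ± 0.11 (SE; edgeR adjusted p = 0.000613.) Here the adjusted p in edgeR was 0.0541 without CTL1 and 0.0600 without CTL2. In all 3 genes the P1KO libraries lay close together and far below the CTL libraries.

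Another 3 called genes fell by close to 1 on the log2 scale. ENSMUSG00000056035 had 37.9 and 42.3 CPM in CTL and 15.5 and 21.9 CPM in P1KO (log2 fold change -1.10 ± 0.15, SE). ENSMUSG00000001670 had 44.1 and 48.3 CPM in CTL and 19.9 and 23.9 CPM in P1KO (log2 fold change -1.08 ± 0.11, SE). ENSMUSG00000027513 had 52.4 and 50.3 CPM in CTL and 29.8 and 24.2 CPM in P1KO (log2 fold change -0.93 ± 0.10, SE). KO1 was the lower of the P1KO libraries for the first pair of these genes and KO3 for the third, and no P1KO library reached a CTL library. In edgeR their adjusted p were 0.00333, 0.000874 and 0.00139.

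The other 5 lower calls were smaller, and in these KO3 lay between KO1 and the CTL libraries. ENSMUSG00000061808 had 141 and 145 CPM in CTL, 78.2 in KO1 and 104 in KO3 (log2 fold change -0.65 ± 0.12, SE). ENSMUSG00000025479 had 55.0 and 54.7 CPM in CTL, 30.0 in KO1 and 39.0 in KO3 (log2 fold change -0.67 ± 0.12, SE). ENSMUSG00000024990 had 53.7 and 51.7 CPM in CTL, 28.5 in KO1 and 40.6 in KO3 (log2 fold change -0.61 ± 0.15, SE). Their adjusted p in edgeR were 0.00962, 0.00801 and 0.0264. The last 2, ENSMUSG00000076441 (log2 fold change -0.35, 55.1 and 55.7 against 39.1 and 48.0 CPM) and ENSMUSG00000066366 (log2 fold change -0.25, 54.7 and 51.1 against 43.4 and 45.5 CPM), passed narrowly, with edgeR adjusted p of 0.0477 and 0.0471. With DESeq2 size factors they did not pass, at 0.0512 and 0.0510. Of the 7 other scalings, tests and filters, 1 kept the call of ENSMUSG00000076441 and 4 that of ENSMUSG00000066366. ENSMUSG00000061808 and ENSMUSG00000024990 were kept in 6 each. Without a filter on low counts these genes did not pass, with edgeR adjusted p of 0.0528 and 0.105.

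The 2 genes called higher rose by about 1.5- to 1.7-fold in both P1KO libraries. ENSMUSG00000032554 had 240 and 227 reads in CTL, against 422 and 359 in P1KO. The level was 13.2 ± 0.678 CPM in CTL and 22.1 ± 2.69 CPM in P1KO (SD, n = 2 each), giving a log2 fold change of 0.74 ± 0.13 (SE; edgeR adjusted p = 0.00711.) ENSMUSG00000017950 had 211 and 214 reads in CTL, and 330 and 326 in P1KO. Its level was 12.0 ± 0.0252 CPM in CTL and 18.5 ± 0.308 CPM in P1KO (SD, n = 2 each), giving a log2 fold change of 0.63 ± 0.11 (SE; edgeR adjusted p = 0.00839.) The groups did not overlap for either gene. Without CTL1 the adjusted p in edgeR were 0.130 and 0.150, and without CTL2 they were 0.157 and 0.154.

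**Figure D2:**
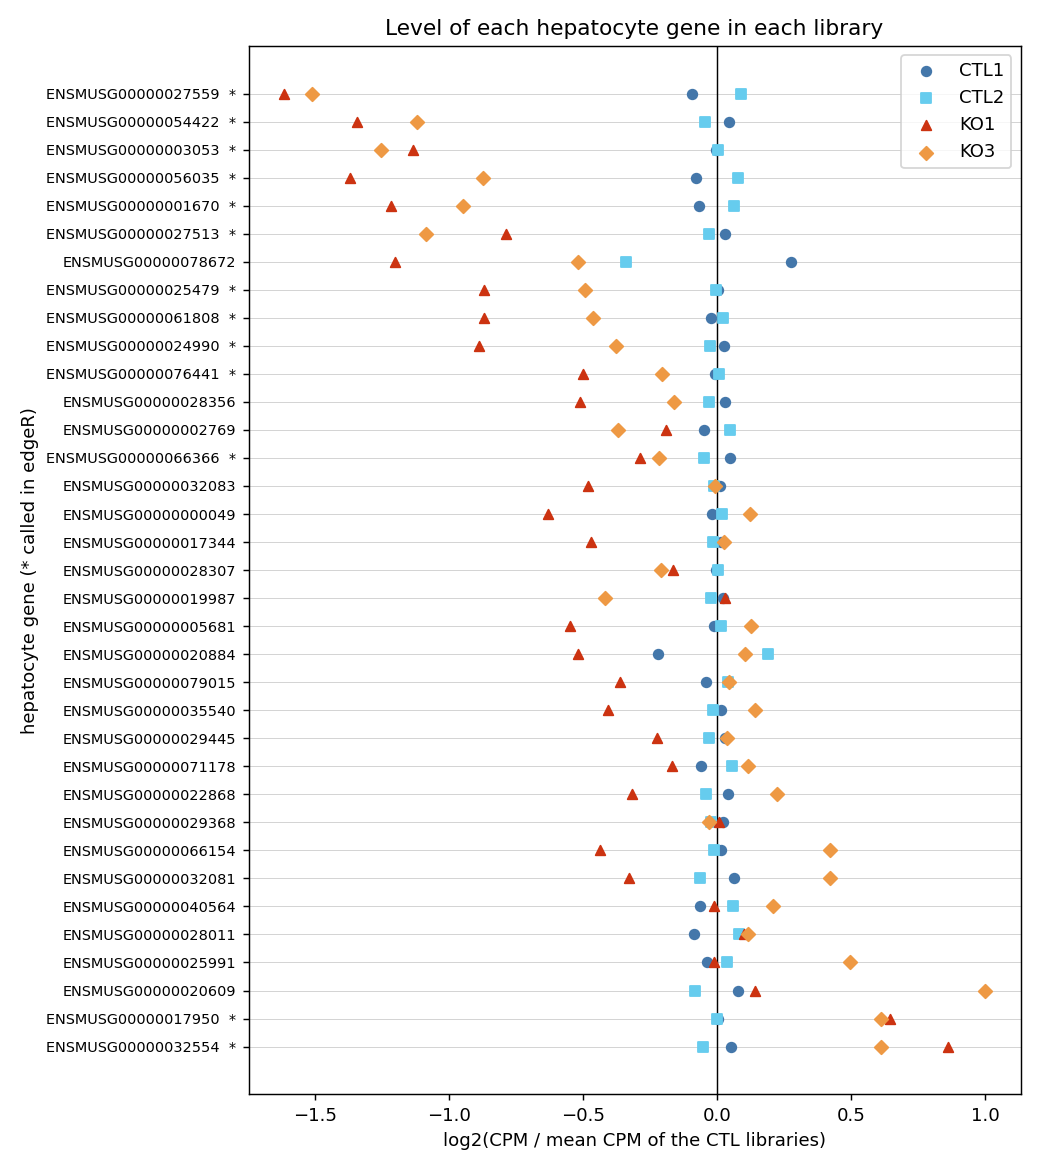
Level of each of the 35 hepatocyte genes (vertical axis, ordered by edgeR log2 fold change, calls marked with an asterisk) in each library as log2 of its CPM over the mean CPM of the CTL libraries (horizontal axis). Both P1KO libraries lie far left of the CTL libraries at the top and to the right in the lowest 2 rows. In the middle rows KO1 is mostly left of the CTL libraries, while KO3 lies left of, among or right of them, depending on the gene.

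Among the 22 genes that did not pass, 4 were lower in both P1KO libraries than in both CTL libraries. ENSMUSG00000078672 had 69.1 CPM in CTL1 and 45.0 CPM in CTL2, which was the widest gap between the CTL libraries of all 35 genes, against 24.8 CPM in KO1 and 39.8 CPM in KO3 (log2 fold change -0.82 ± 0.25, SE, edgeR adjusted p of 0.0559). The other 3, ENSMUSG00000028356, ENSMUSG00000002769 and ENSMUSG00000028307, had log2 fold changes of -0.32, -0.28 and -0.19 with edgeR adjusted p of 0.0759, 0.0850 and 0.0627. Higher in both P1KO libraries without passing were 2 genes. ENSMUSG00000020609 had 20.7 and 18.5 CPM in CTL and 21.7 in KO1 but 39.3 in KO3 (log2 fold change 0.63 ± 0.25, SE, edgeR adjusted p of 0.116), so its difference lay almost wholly in KO3. ENSMUSG00000028011 had 17.5 and 19.6 CPM in CTL and 19.9 and 20.1 CPM in P1KO. In all, the groups did not overlap for 15 genes lower in P1KO, 42.9% against 32.1% of all tested genes, and for 4 higher in P1KO, 11.4% against 30.5%.

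The remaining 16 genes had overlapping groups, and for most of these the P1KO libraries lay on opposite sides of the controls. In 10 of the 35 genes KO1 was below both CTL libraries and KO3 above both, which is 28.6% against 5.73% of all tested genes. The reverse order, KO1 above and KO3 below, was found in 1 hepatocyte gene, ENSMUSG00000019987, at 106 and 103 CPM in CTL, 107 in KO1 and 78.1 in KO3. ENSMUSG00000066154 had the widest split of the 10 on the log2 scale (KO3 minus KO1 of 0.86), with 62.4 and 61.2 CPM in CTL, 45.6 in KO1 and 82.7 in KO3. ENSMUSG00000032081 had 34.5 and 31.6 CPM in CTL, 26.3 in KO1 and 44.2 in KO3. ENSMUSG00000022868 had 120 and 113 CPM in CTL, 93.7 in KO1 and 136 in KO3. Such genes have a group mean near that of CTL (log2 fold changes of 0.06, 0.10 and -0.02 for these 3) although neither P1KO library lay within the control range. With KO3 left out, the log2 fold changes of the 3 genes were -0.44, -0.33 and -0.32. With KO1 left out they were 0.42, 0.42 and 0.22. The opposite signs follow from how the genes were picked and are no separate test.

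Of the same 10 genes, ENSMUSG00000005681 had 86.6 and 88.2 CPM in CTL, 59.7 in KO1 and 95.3 in KO3, and ENSMUSG00000035540 had 105 and 103 CPM in CTL, 78.4 in KO1 and 115 in KO3. ENSMUSG00000000049 had 24.3 and 25.0 CPM in CTL, 15.9 in KO1 and 26.8 in KO3. In the other 4, ENSMUSG00000017344, ENSMUSG00000079015, ENSMUSG00000029445 and ENSMUSG00000071178, KO1 stood at 62.6, 24.0, 32.2 and 74.5 CPM and KO3 at 88.3, 31.7, 38.7 and 90.7 CPM, the latter close to the higher CTL library. ENSMUSG00000032083, the second in reads after ENSMUSG00000029368, had 146 and 144 CPM in CTL, 104 in KO1 and 144 in KO3, so that it was low in KO1 and at the control level in KO3. ENSMUSG00000020884, the gene with the fewest reads, had 119 and 161 reads in the CTL libraries, 97 in KO1 and 151 in KO3. ENSMUSG00000025991 and ENSMUSG00000040564 were within the CTL range in KO1, at 20.0 and 53.7 CPM, and above it in KO3, at 28.5 and 62.5 CPM.

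Over all 35 genes, KO3 had the higher level of the P1KO libraries in 27, 77.1% against 48.0% of all tested genes. The median difference, KO3 minus KO1, was 0.35 on the log2 scale over the hepatocyte genes and -0.01 over all tested genes. CTL2 minus CTL1 had a median of -0.01 over the hepatocyte genes. KO1 was below both CTL libraries in 27 genes (77.1% against 42.8% of all tested genes) and KO3 in 17 (48.6% against 42.7%). The difference between the P1KO libraries therefore touched most of the hepatocyte genes. It has no replicate of its own and was not tested.

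The changes were also compared in library pairs that share no library. KO1 minus CTL1 and KO3 minus CTL2 correlated across the 35 genes with r = 0.76, and KO1 minus CTL2 with KO3 minus CTL1 at r = 0.80. These values describe 35 genes of 4 libraries, which are not independent replicates, and no p-value is attached. The sign was the same for 23 and 20 of the 35 genes. Neither r nor the sign counts were taken over all tested genes, so they show nothing particular to the hepatocyte genes. ENSMUSG00000078672, with the second deepest fall in KO1 minus CTL1 (-1.47), was at -0.18 in KO3 minus CTL2.

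**Figure D3:**
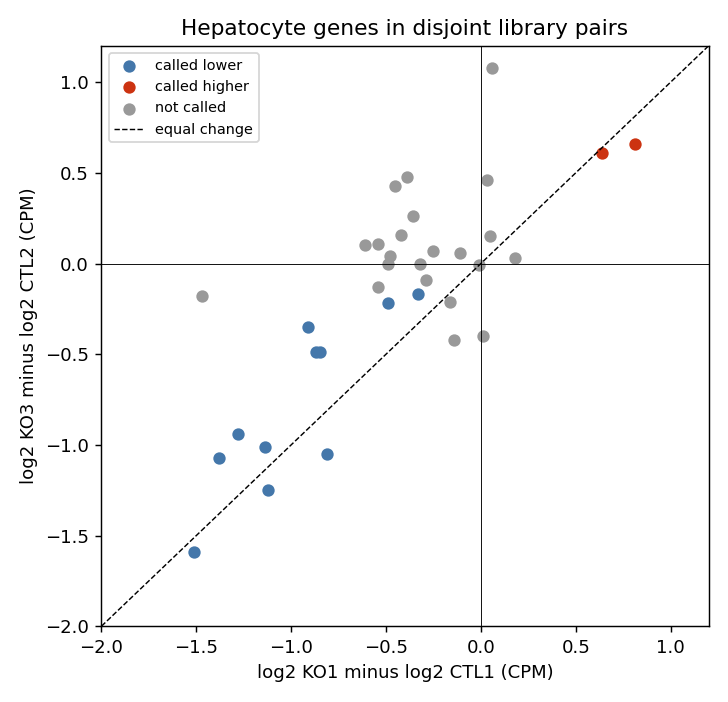
Change of each of the 35 hepatocyte genes in KO1 against CTL1 (horizontal axis) and in KO3 against CTL2 (vertical axis), as differences of log2 CPM, coloured by edgeR call; the dashed line marks equal change. The genes called lower lie at the lower left and the 2 called higher at the upper right (r = 0.76 over all 35 genes), and most grey points lie above the line. The calls were made on these same libraries, so the places of the called genes follow from the calls.

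Ratios between hepatocyte genes within a library do not depend on the scaling of the libraries. For every 100 reads of ENSMUSG00000029368 there were 5.06 and 5.92 reads of ENSMUSG00000027559 in the CTL libraries, against 1.78 in KO1 and 1.97 in KO3. For ENSMUSG00000054422 the values were 6.62 and 6.43 in CTL, and 2.56 and 3.07 in P1KO. ENSMUSG00000032554 went the other way, with 1.99 and 1.91 reads in CTL, and 3.52 and 3.05 in P1KO. The 11 genes called lower together gave 87.0 and 90.9 reads per 100 of ENSMUSG00000029368 in CTL, 47.7 in KO1 and 58.9 in KO3. The proportion of these genes to ENSMUSG00000029368 thus differed between the P1KO and the CTL libraries. All genes set against ENSMUSG00000029368 here were chosen for their calls on these libraries. The ratios are therefore a description and no separate test.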

How the data were processed

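The authors deposited 1 table of raw read counts, with 54532 Ensembl identifiers in 4 columns (CTL1, CTL2, KO1, KO3), 0 rows that name no gene and 0 unused columns of samples. The submitters' processing notes name featureCounts 1.5.0-p3, HISAT2 2.0.5, fastp and CASAVA, with mm10 as build. No annotation release or strand setting is given in the sources used here. Reads of near-identical or overlapping genes may therefore be misassigned. The number of KO3 is in no sample title, so this column was placed in P1KO without a sample number.

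P1KO was compared with CTL over all 4 libraries with edgeR 4.0.16 in R 4.3.3 (filterByExpr, TMM, quasi-likelihood F-test, no covariate, Benjamini-Hochberg adjustment over 15510 genes). Standard errors are the absolute log2 fold change over the square root of F. CPM use TMM-scaled totals of the tested genes, and differences of log2 CPM between libraries a prior count of 2. Shares are reads of the 35 genes over all counts. Every one of the 35 genes is reported; the order by role and the marker lists planned by symbol could not be used. The script was tested on simulated data in which the libraries of a group shared the same expected proportions. That test checks the code and does not bear on the difference between KO1 and KO3. Alternatives used DESeq2 1.42.0, limma 3.58.1, other scalings and filters, and each library left out. The genes and lists were chosen with earlier results of these data known.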

Additional observations from a re-analysis of the deposited data

How the results depend on the processing

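Of the 11 lower and 2 higher calls, 7 and 2 were kept under all 7 other scalings, tests and filters. Without a filter on low counts 7 genes were lower, and 1633 of all genes were called in place of 3027. Leaving out 1 library gave 1 to 24 lower, 0 to 9 higher and 120 to 5391 of all genes called. In those fits the spread came from the group that kept 2 libraries. The share difference, P1KO minus CTL, was -0.0372 percentage points, -0.0272 without the 5 genes with most reads, and -0.0575 to -0.0169 with 1 library left out. Estimates of 15 genes, none of them called in the fit of all 4 libraries, changed sign in 20 cases. In 1 case (ENSMUSG00000066154, -0.01) this was with limma-voom, and otherwise with 1 library left out. With 1 library left out, the log2 fold change ran from -0.63 to 0.12 for ENSMUSG00000000049, -0.55 to 0.12 for ENSMUSG00000005681, -0.52 to 0.10 for ENSMUSG00000020884, -0.47 to 0.03 for ENSMUSG00000017344, -0.44 to 0.42 for ENSMUSG00000066154, -0.42 to 0.03 for ENSMUSG00000019987, -0.41 to 0.14 for ENSMUSG00000035540 and -0.36 to 0.04 for ENSMUSG00000079015. It ran from -0.33 to 0.42 for ENSMUSG00000032081, -0.32 to 0.22 for ENSMUSG00000022868, -0.23 to 0.04 for ENSMUSG00000029445, -0.17 to 0.11 for ENSMUSG00000071178, -0.04 to 0.01 for ENSMUSG00000029368, -0.01 to 0.50 for ENSMUSG00000025991 and -0.01 to 0.21 for ENSMUSG00000040564. No paired analysis was possible because the columns of the groups share only 1 number (CTL1 and KO1) and no sample title carries that of KO3; a block on an assumed pairing was not fitted. Leaving out Alb or gene families by symbol, and an endothelial denominator, were not run for lack of symbols.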
